A study of Mus musculus with 12 samples.

Results

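Chemokines are small secreted proteins that direct the migration of blood cells, and each acts through G protein-coupled receptors on the cell that receives it. The CC (Ccl, Ccr) and CXC (Cxcl, Cxcr) families are named after the spacing of conserved cysteines, and Cx3cl1 and Xcl1 with their receptors form small families of their own. In the fetal liver, Cxcl12 and its receptor Cxcr4 are known for holding blood progenitors in their niche, while many CC ligands are products of macrophages and other myeloid cells. The genes followed here are the protein-coding genes of the deposited table whose symbol is Ccl, Cxcl, Ccr or Cxcr with a number, or Cx3cl1, Cx3cr1, Xcl1 or Xcr1. This naming rule uses no expression value. Of the 38250 genes in the table, 58 are described here, 40 of them ligand genes and 18 receptor genes, under 55 symbols.

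Fetal liver cells came from mouse embryos (CD1, e14.5) that were wild type for Ikzf1 (IkWT) or carried a deletion of its last translated exon (IkNull). The deletion removes the IKAROS protein in all tissues, and wild-type littermates were the controls. These unsorted liver cells were co-cultured for 48 h with erythropoietin on OP9, a bone marrow stromal line, or on OP9-DL1. The latter is the same line engineered to express the NOTCH ligand Delta-like 1 constitutively. According to the paper, Ter119+ erythroid cells were sorted only after the co-culture. The design gives 4 groups of 3 libraries, IkWT/OP9, IkWT/OP9-DL1, IkNull/OP9 and IkNull/OP9-DL1, with replicates 1, 3 and 4 in IkWT and 1, 2 and 3 in IkNull. It asks how the loss of IKAROS and the induction of NOTCH signaling, alone and jointly, change gene expression. Values are normalized counts, the reads of a gene after the authors' division by a size factor of the library. A library held between 19889576 and 31624477 reads. The stroma labels can be checked on Dll1, the gene of the engineered ligand, which lay at 0 to 5.58 normalized counts in the 6 OP9 libraries and at 203 to 523 in the 6 OP9-DL1 libraries. The Ikzf1 count, at 2424 to 2721 in IkWT and 1721 to 2719 in IkNull libraries, checks nothing, because the deletion takes only 1 exon and the count sums the whole gene. The library pair of IkNull replicate 1 stood apart from the other IkNull libraries in a list of 12 interferon-stimulated genes, whose values are given beside the results that they touch.

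Markers of other cell types were present in all 12 libraries although Ter119 was used to isolate the cells, and several of those cell types are known producers of chemokines. The summed level of 12 macrophage markers lay at 1112 to 3087 normalized counts in IkWT libraries and at 3631 to 12550 in IkNull libraries, with none of the 12 at 0 throughout. The sum of 9 neutrophil markers lay at 6402 to 50630 in IkWT and 23002 to 87823 in IkNull libraries. The sum of 10 mast cell, basophil and eosinophil markers lay at 467 to 1548 in IkWT and 3872 to 6945 in IkNull libraries. Prg2 led that sum in IkNull libraries, at 2568 to 4606, and only Prg2, Epx and Hdc did not overlap between the genotypes. Mcpt8, Cpa3, Fcer1a, Mcpt4, Prss34, Ms4a2 and Tpsb2 overlapped. The sum of 8 megakaryocyte markers lay at 827 to 1680 in IkWT and 2823 to 8093 in IkNull libraries, and that of 8 endothelial markers at 156 to 213 and 1293 to 2094. Among the megakaryocyte markers, Gp9, Vwf, Tubb1 and Gp6 overlapped between the genotypes, and among the endothelial markers Stab2, Lyve1 and Esam did. Gp9 lay at 76.2 to 142.9 in IkWT and 45.2 to 109 in IkNull libraries, and Stab2 at 6.2 to 34 and 5 to 16.6. Other lists overlapped as sums. That of 6 hepatocyte markers lay at 3037 to 8546 in IkWT and 2623 to 7248 in IkNull libraries, and that of 7 lymphoid markers at 42.8 to 78.1 and 36.3 to 104. None of 8 erythroid genes passed the test between the genotypes on either stroma. In bulk RNA, fewer cells of a type and less RNA per cell cannot be told apart. The part of these cell types in the chemokine results was not tested.

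Of the family members, 24 (18 ligands and 6 receptors) had a mean over all libraries of 5 normalized counts or more, and these were tested among 13769 genes. Of the remaining 34, 12 were at 0 in every library, among them Ccl19, Ccl21a and Cxcl13, ligands of lymphoid organs, and the receptors Ccr6 and Ccr8. The 12 also include the entries of Ccl21c and a further entry of Ccl25, which were not found in the GENCODE vM21 annotation. The main entry of Ccl25 was among the 24 tested. Of the 50-base words of Ccl19, Ccl21a, Ccl21b and Ccl27b, 52.0%, 71.6%, 100% and 98.1% also occur in other genes. Their 0 thus need not mean that no RNA was present. The other 22 reached at most 17.9 in any library, and their highest mean was 4.04. The lowest mean among the 24 tested was 10.4, for Cx3cl1. Cxcl12, the niche ligand, was detected in every library, with 65.2, 54.5 and 60.9 normalized counts in IkWT/OP9 libraries. It held 28.9, 45.7 and 33.7 in IkWT/OP9-DL1, 28.4, 29.0 and 66.3 in IkNull/OP9, and 33.7, 33.2 and 61.4 in IkNull/OP9-DL1 libraries, so the 4 groups overlapped except for the lower IkWT/OP9-DL1 libraries against IkWT/OP9.

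Levels of different genes can be set side by side only per length, here as normalized counts per kb of exon (union of exons in GENCODE vM21, GRCm38). On this scale Cxcr7, now named Ackr3, which binds CXCL12 and clears it from the surroundings, was the highest member in both IkWT groups, at 283 in IkWT/OP9 and 247 in IkWT/OP9-DL1. The highest ligands of IkWT/OP9 cells were Ccl2 at 120, Ccl9 at 118 and Ccl6 at 115 per kb, values closer to each other than the spread of their libraries. In IkNull/OP9 cells the order was led by Ccl8 at 1122, Cxcr7 at 962, Ccl6 at 928 and Ccl9 at 723 per kb. In IkNull/OP9-DL1 cells Cxcr7 at 958 and Cxcl10 at 662 per kb came first. Ccl8, a CC ligand that acts through CCR8 in mouse, thus stood first of the 24 in IkNull/OP9 and last in IkWT/OP9, at 2.24 per kb.

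**Figure D1:**
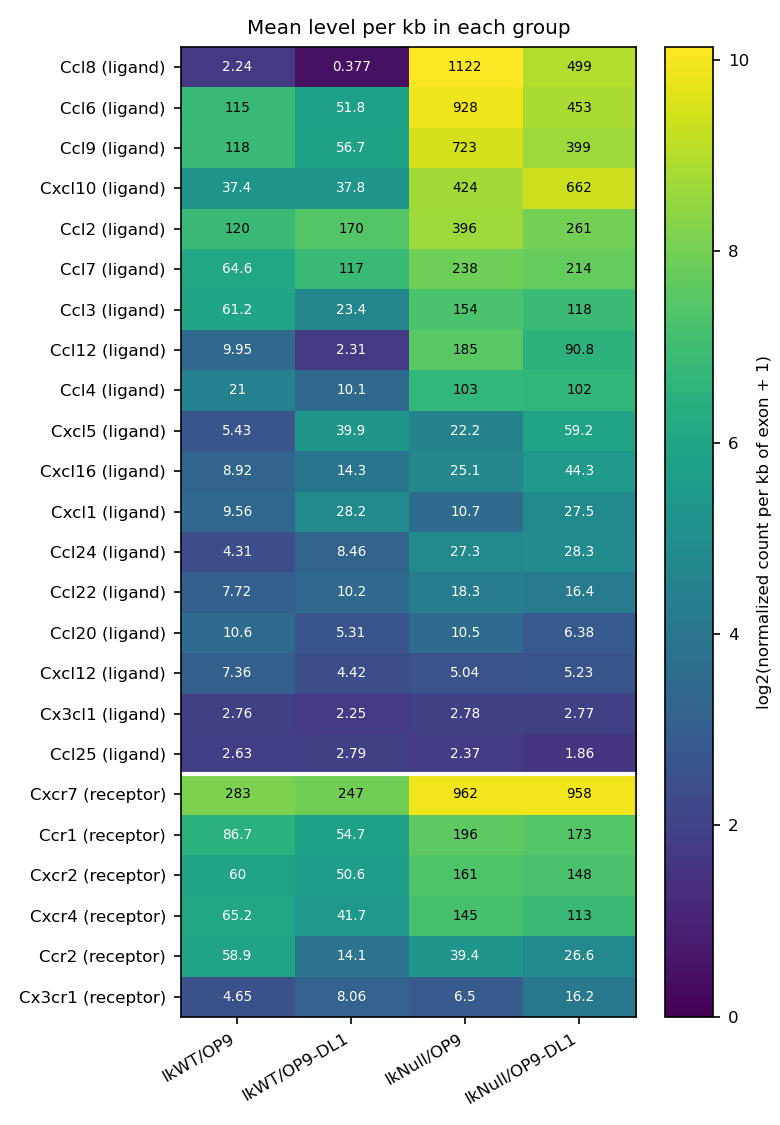
Mean level of the 24 tested family members in each group, in normalized counts per kb of exon (printed in the cells, color on a log2 scale after adding 1), with ligands above the white line and receptors below it. The row of Ccl8 goes from 2.24 in IkWT/OP9 to 1122 in IkNull/OP9, while Cxcr7 leads the receptors in all 4 columns.

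Sequence upstream of the start site is shown for 4 members that the results turn on and that held a match to a motif searched: Ccl8 with the largest difference between the genotypes, Ccl9 with a difference between genotypes and between stromas, Cxcl10 with the widest spread among IkNull libraries, and Cxcl1 as the ligand with a difference between stromas alone. RefSeq start sites (GRCm38.p6) were found for 18 of the 24 tested members, and 250 bases before each were searched on both strands. The motifs were the interferon-stimulated response element (ISRE), read as TTTC and TTTC parted by any 2 bases, the STAT site (GAS), read as TTC and GAA parted by any 3 bases, the NF-kB site, read as GGG and TTTCC parted by any 2 bases, and TGGGAA, a core shared by IKAROS and the NOTCH effector RBPJ. Each sequence runs 5′ to 3′ on the strand of its gene and ends at the base before the start site, and capitals mark the motif match.
Ccl8, chr11:82114935-82115184, plus strand: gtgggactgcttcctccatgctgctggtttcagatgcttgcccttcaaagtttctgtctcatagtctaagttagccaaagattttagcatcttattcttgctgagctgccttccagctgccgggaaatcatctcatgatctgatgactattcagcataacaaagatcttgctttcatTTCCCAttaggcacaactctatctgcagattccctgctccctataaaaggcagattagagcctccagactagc
Ccl9, chr11:83578637-83578886, minus strand: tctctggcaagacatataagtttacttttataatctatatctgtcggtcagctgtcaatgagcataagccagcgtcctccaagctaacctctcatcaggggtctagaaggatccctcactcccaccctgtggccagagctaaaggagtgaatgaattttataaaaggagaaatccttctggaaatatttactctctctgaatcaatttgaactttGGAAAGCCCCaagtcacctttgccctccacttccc
Cxcl10, chr5:92348890-92349139, minus strand: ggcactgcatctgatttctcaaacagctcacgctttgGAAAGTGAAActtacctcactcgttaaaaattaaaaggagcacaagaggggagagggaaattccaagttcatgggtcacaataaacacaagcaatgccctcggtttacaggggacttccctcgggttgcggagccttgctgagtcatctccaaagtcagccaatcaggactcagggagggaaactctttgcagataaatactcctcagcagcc
Cxcl1, chr5:90890995-90891244, plus strand: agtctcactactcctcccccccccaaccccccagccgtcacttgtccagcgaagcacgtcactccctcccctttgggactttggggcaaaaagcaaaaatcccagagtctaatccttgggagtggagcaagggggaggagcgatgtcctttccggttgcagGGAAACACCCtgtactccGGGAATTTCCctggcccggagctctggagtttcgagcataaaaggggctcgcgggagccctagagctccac

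The ISRE was found upstream of 1 of the 18 members, Cxcl10, and in 3.0% of all 32851 promoters of the same length in the table. Its match in Cxcl10 began 213 bases before the start site. The NF-kB motif, in the letters searched, was found upstream of 3 of 18, Ccl9, Cxcl1 and Ccl20, and in 1.4% of all promoters. Those letters fix TTTCC, so near matches such as gggaaattcc and ggggacttcc in the printed Cxcl10 sequence were not counted. A promoter without a match may thus still hold a looser form of the site. Cxcl1 held it at 2 places, 89 and 71 bases before the start site. TGGGAA was found upstream of 6 of 18, Ccl8, Ccl20, Cx3cl1, Cx3cr1, Cxcl12 and Cxcr2, and in 21.6% of all promoters. The GAS motif was found upstream of none of the 18 and in 7.0% of all promoters. None of the 11 matches overlapped another, and a match is a description of the letters, not of a bound site.

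Loss of IKAROS was addressed by IkNull vs IkWT cells on the same stroma. On OP9, 7 of the 24 members tested were higher in IkNull cells and 0 were lower, beside 6.69% of all 13769 genes called higher and 2.83% called lower. On OP9-DL1, 8 members were higher in IkNull cells and 0 were lower, beside 9.41% of all genes called higher and 4.65% called lower. A call was made by limma on log2(normalized count + 1) and needed both an adjusted p below 0.05 and a change of 0.8 or more on the log2 scale. For the comparisons of genotypes, limma stands for the fit without the replicate number as a block. Calls with that block are given in the section on how the results depend on the processing. Of these members, 6 were called on both stromas, namely Ccl6, Ccl8, Ccl9, Ccl12, Cxcl16 and Cxcr7. Ccl8 and Ccl12 passed the filter only through their IkNull libraries, as their means over the IkWT libraries were 0.668 and 3.29. The counts, medians and groups without overlap given here include both, so part of each was set by the filter. In limma Ccl24 was called on OP9 alone, and Ccl3 and Cxcl10 on OP9-DL1 alone, but edgeR and DESeq2 on the recovered reads called Ccl24 and Cxcl10 on both stromas. The 9 members are 8 ligands and 1 receptor. The median log2 fold change of the tested members was 1.44 on OP9 and 1.54 on OP9-DL1, against 0.00 and 0.03 over all genes. The groups did not overlap, with IkNull higher, for 12 members on OP9 and 11 on OP9-DL1, while 17.1% of all genes did so in each comparison. No member was lower at an unadjusted p under 0.05 on either stroma, where 12.9% of all genes were on OP9 and 15.7% on OP9-DL1, nor was any called lower by edgeR or DESeq2 on the recovered reads. The comparisons on the 2 stromas share no library, but libraries of a genotype with the same number deviated together on both stromas and are called a culture here, which the labels do not state.

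**Figure D2:**
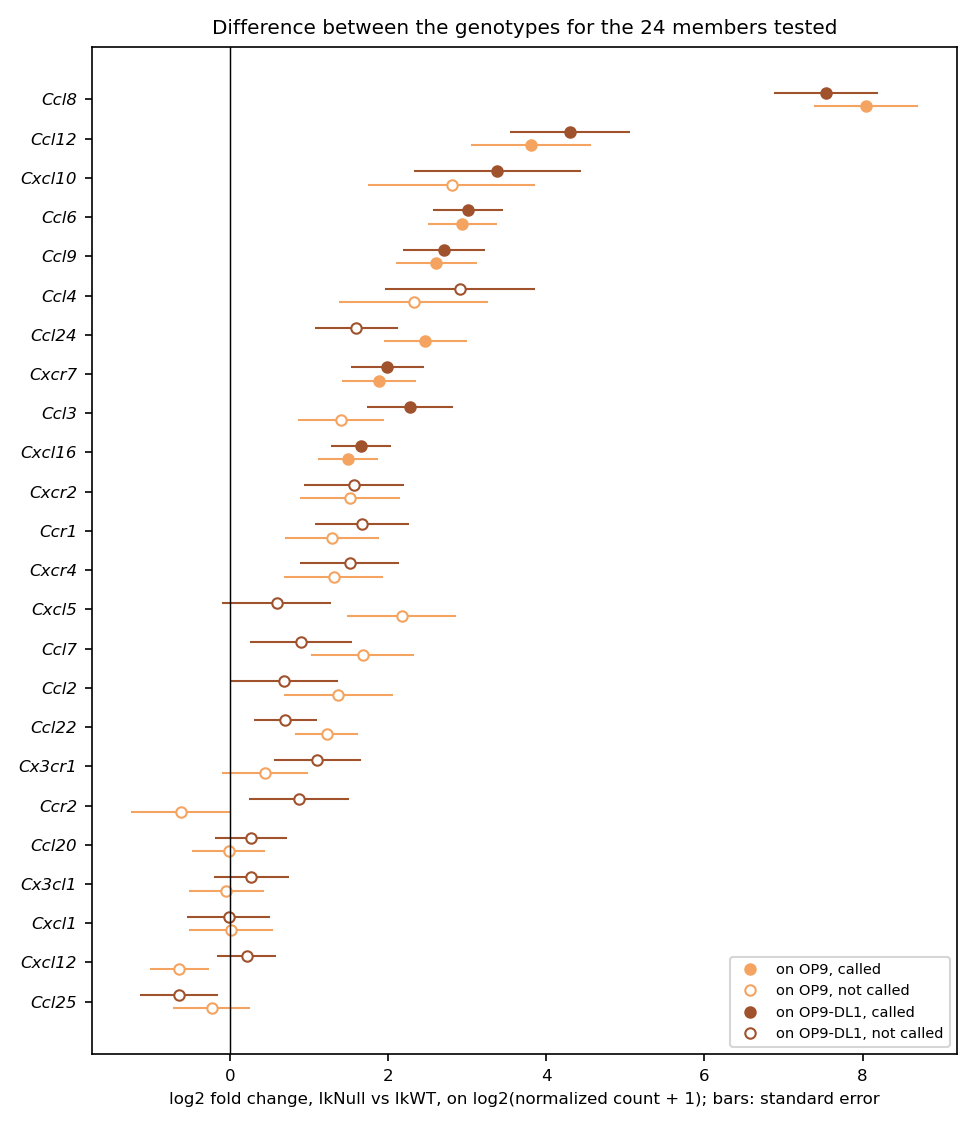
Log2 fold change (IkNull vs IkWT, on log2(normalized count + 1)) of the 24 tested members on OP9 and on OP9-DL1, with bars of 1 standard error and filled points for members that passed the test. Ccl8 lies at 8.04 on OP9 and 7.54 on OP9-DL1, and no filled point lies below 0.

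The number of calls depended on single libraries and cultures. On OP9 it was 4 without IkNull/OP9 replicate 2 and 4 without IkNull/OP9 replicate 3. With both libraries of a culture left out, it was 2 without IkWT replicate 4, 13 without IkNull replicate 1, 2 without IkNull replicate 2 and 4 without IkNull replicate 3. On OP9-DL1 it was 5 without IkWT/OP9-DL1 replicate 1 and 4 without IkNull/OP9-DL1 replicate 2. It was 4 without the culture of IkWT replicate 4, 3 without that of IkNull replicate 2 and 4 without that of IkNull replicate 3, and it was 12 without that of IkNull replicate 1. Ccl6 and Ccl8 were called on both stromas under each of the 22 other settings and left-out libraries tried, and Ccl12 was on OP9-DL1. The share of all genes called is not given for the fits with libraries or cultures left out.

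Ccl8 and Ccl12 are neighbours in a cluster of 6 CC ligand genes on chromosome 11 (82035571 to 82305690, GRCm38) with Ccl2, Ccl7, Ccl11 and Ccl1. Ccl8 (82115185 to 82116799, plus strand) was nearly silent in IkWT cells, with 0, 2.48 and 0.952 normalized counts on OP9 and 0, 0.579 and 0 on OP9-DL1. In IkNull cells it held 243, 545 and 932 on OP9 against 86.9, 335 and 344 on OP9-DL1. Each IkNull library was thus far above every IkWT library, and replicate 1 was the lowest IkNull library on both stromas. The IkWT libraries held 5 Ccl8 reads on OP9 and 1 on OP9-DL1, against 1557 and 630 in the IkNull libraries. The ratio of IkNull to IkWT was 445 on OP9, with an exact 95% interval from 190 to 1371 that covers counting error only. On OP9-DL1 the ratio was 1016, with an interval from 182 to 40206. The limma log2 fold change was 8.04 ± 0.65 (SE) on OP9 (adjusted p = 4.79e-05) and 7.54 ± 0.65 on OP9-DL1 (adjusted p = 4.77e-05). With IkWT counts near 0 this fitted value depends on the pseudocount and the tool, and it ranged from 5.42 to 9.82 on OP9-DL1 over the settings tried.

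Ccl12, a ligand of CCR2 in mouse, held 3.84, 7.43 and 4.76 normalized counts in IkWT/OP9 and 0, 2.89 and 0.823 in IkWT/OP9-DL1 libraries. It held 44.5, 79.5 and 175 in IkNull/OP9 and 10.4, 63.4 and 72.5 in IkNull/OP9-DL1 libraries, with no overlap between the genotypes on either stroma. Its log2 fold change was 3.81 ± 0.76 (SE) on OP9 (limma, adjusted p = 0.00964) and 4.30 ± 0.76 on OP9-DL1 (adjusted p = 0.00414). The call on OP9 was lost without the culture of IkWT replicate 4 or of IkNull replicate 2, where the adjusted p reached 0.0626. Ccl2 and Ccl7, ligands of CCR2 in the same cluster, were not called by limma. DESeq2 on the recovered reads called both on OP9 (adjusted p = 0.0427 and 0.0224). Ccl2 held 70.0, 156 and 183 in IkWT/OP9 and 120, 315 and 917 in IkNull/OP9 libraries, and its log2 fold change was 1.37 ± 0.68 there and 0.68 ± 0.68 on OP9-DL1. The log2 fold change of Ccl7 was 1.67 ± 0.65 on OP9 (adjusted p = 0.116) and 0.90 ± 0.65 on OP9-DL1. Of Ccl11 and Ccl1, at most 1.01 normalized counts were found in any library.

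Ccl6 and Ccl9, ligands of CCR1, lie beside Ccl3, Ccl4 and Ccl5 in a second cluster on chromosome 11 (83525778 to 83664683). Ccl6 held 205, 214 and 198 normalized counts in IkWT/OP9 and 61.9, 134 and 83.1 in IkWT/OP9-DL1 libraries. It held 988, 2148 and 1862 in IkNull/OP9 and 359, 1276 and 807 in IkNull/OP9-DL1 libraries, so that the lowest IkNull library was above the highest IkWT library. Its log2 fold change was 2.94 ± 0.44 (SE) on OP9 (limma, adjusted p = 0.00184) and 3.01 ± 0.44 on OP9-DL1 (adjusted p = 0.00138). Ccl9 held 213, 481 and 383 in IkWT/OP9 and 1249, 2670 and 2686 in IkNull/OP9 libraries. On OP9-DL1 it held 102, 252 and 164 in IkWT and 480, 1757 and 1411 in IkNull libraries, again with no overlap. Its log2 fold change was 2.61 ± 0.52 on OP9 (adjusted p = 0.00925) and 2.71 ± 0.52 on OP9-DL1 (adjusted p = 0.00629). The Ccl9 call was lost without the culture of IkNull replicate 2 on both stromas, and on OP9 also without that of IkWT replicate 4 or IkNull replicate 3, with adjusted p-values of up to 0.0548.

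Ccl3 and Ccl4 encode the macrophage inflammatory proteins, which attract monocytes and lymphocytes. Ccl3 held 25.9, 70.0 and 44.7 in IkWT/OP9 and 91.4, 121 and 141 in IkNull/OP9 libraries, and its log2 fold change on OP9 was 1.40 ± 0.55 (SE), which did not pass the test (limma, adjusted p = 0.119). On OP9-DL1 it held 7.22, 26.0 and 20.6 in IkWT and 38.9, 106 and 127 in IkNull libraries, and rose by 2.28 ± 0.55 (adjusted p = 0.0184). This call was lost with libraries scaled to the same total, without IkWT/OP9-DL1 replicate 1, without IkNull/OP9-DL1 replicate 2 or 3, and without the culture of IkWT replicate 4 or IkNull replicate 2 or 3, with adjusted p-values of up to 0.118. The difference between the stromas in this genotype effect was 0.88 ± 0.77 and did not pass the test. Ccl4 held 4.79, 31.0 and 5.71 in IkWT/OP9 and 18.5, 63.1 and 123 in IkNull/OP9 libraries, which overlap. Its log2 fold change was 2.32 ± 0.94 on OP9 (limma, adjusted p = 0.131) and 2.91 ± 0.94 on OP9-DL1 (adjusted p = 0.0549). On OP9-DL1 edgeR and DESeq2 on the recovered reads did call Ccl4 (adjusted p = 0.0464 and 0.00324). Ccl5, a ligand made by lymphocytes, reached at most 12.1 in any library.

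Ccl24, an eosinophil attractant that binds CCR3, held 6.71, 4.34 and 5.71 normalized counts in IkWT/OP9 and 28.4, 36.6 and 41.2 in IkNull/OP9 libraries. It was higher in IkNull/OP9 cells by 2.47 ± 0.53 (SE, limma, adjusted p = 0.0137). The call was lost without IkNull/OP9 replicate 2 or 3 and without the culture of IkWT replicate 4 or IkNull replicate 2, with adjusted p-values of up to 0.0746. On OP9-DL1 it held 13.4, 4.63 and 14.8 in IkWT and 14.3, 39.3 and 56.4 in IkNull libraries, where the genotypes overlap, and the log2 fold change of 1.59 ± 0.53 did not pass the test (adjusted p = 0.0585, against 0.0398 by edgeR and 0.0126 by DESeq2). The genotype effect on OP9-DL1 minus that on OP9 was -0.87 ± 0.75, which did not pass the test either. The eosinophil granule genes Prg2 and Epx, outside the family, were called higher on both stromas, with Epx at 25.9 to 73.7 in the 6 IkWT and 572 to 1310 in the 6 IkNull libraries. The receptor Ccr3 stayed under the filter, at 0 to 5.21 in IkWT and 3.02 to 10.1 in IkNull libraries.

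Cxcl16, a membrane-bound ligand of CXCR6, held 21.1, 35.9 and 23.8 in IkWT/OP9 and 76.6, 65.6 and 85.4 in IkNull/OP9 libraries. On OP9-DL1 it held 28.9, 68.8 and 32.1 in IkWT and 86.9, 184 and 130 in IkNull libraries, and the genotypes did not overlap on either stroma. It was higher in IkNull cells by 1.49 ± 0.38 (SE) on OP9 (limma, adjusted p = 0.0295) and 1.65 ± 0.38 on OP9-DL1 (adjusted p = 0.0152). This was the least stable call on OP9, made under 12 of the 22 other settings. It was lost there with libraries scaled to the same total, without IkWT/OP9 replicate 1 or 4 and without any 1 of the 3 IkNull/OP9 libraries, and without the cultures of IkWT replicate 1 or 4 or IkNull replicate 2 or 3 (adjusted p up to 0.133). On OP9-DL1 it was made under 14 of 22 and lost with the same total, without IkWT/OP9-DL1 replicate 1 or 4, without IkNull/OP9-DL1 replicate 2 and without those same cultures (adjusted p up to 0.104). Its receptor Cxcr6 reached at most 1.91 in any library.

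Cxcl10, an interferon-inducible ligand of CXCR3, varied among cultures as well as between genotypes. It held 112, 52.0 and 88.5 in IkWT/OP9 and 79.4, 72.9 and 103 in IkWT/OP9-DL1 libraries. In IkNull/OP9 it held 117 in replicate 1, 776 in replicate 2 and 1972 in replicate 3, and in IkNull/OP9-DL1 it held 154, 1729 and 2589 in the same order. Both libraries of IkNull replicate 1 were thus just above the highest IkWT library, and the other 4 far above it. The log2 fold change was 3.38 ± 1.06 (SE) on OP9-DL1 (limma, adjusted p = 0.0485) and 2.80 ± 1.06 on OP9, where it did not pass the test (adjusted p = 0.108, against 0.0437 by edgeR and 0.00486 by DESeq2). The call on OP9-DL1 was made under 9 of 22 other settings. It was lost without any 1 of the 3 IkWT/OP9-DL1 libraries, without IkNull/OP9-DL1 replicate 2 or 3, without any culture but that of IkNull replicate 1, without a filter, with libraries scaled to the same total, and without the trend in limma, with adjusted p-values of up to 0.228.

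The summed level of 12 interferon-stimulated genes put the IkNull cultures in the same order as Cxcl10, but not the stromas of replicate 3. It lay at 32451 to 53780 in IkWT libraries, at 33664 and 41514 in IkNull replicate 1, at 260751 and 379077 in replicate 2, and at 626784 and 576105 in replicate 3, OP9 first. The sum is led by Rsad2, Oasl2 and Isg15, and single genes differed. For 6 of the 12, namely Mx1, Mx2, Ifit3, Oas1a, Gbp2 and Gbp3, both IkNull replicate 1 libraries were above every IkWT library, with Mx2 at 993 and 1271 against 42.3 to 218. Rsad2 was below every IkWT library there, at 3986 and 4999 against 13764 to 29573. Of the 12 genes, 5 were called higher on OP9 and 7 on OP9-DL1, none lower, with Mx2 at 5.79 ± 1.24 and Gbp2 at 4.88 ± 1.23 on OP9 (log2 fold change, SE). Irf1, a transcription factor induced by interferon, followed the same order, with 592, 3537 and 7714 in IkNull/OP9 and 102, 219 and 148 in IkWT/OP9 libraries. Ifng, the gene of interferon gamma, was at 0 in every library, and Ifnb1 reached at most 4.03. The other interferon-inducible CXCR3 ligand of the family, Cxcl9, was under the filter, at 0 in all 6 IkWT libraries and at 1.24 to 15.1 in IkNull libraries. The part of the interferon-stimulated genes in the Cxcl10 result was not tested.

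**Figure D3:**
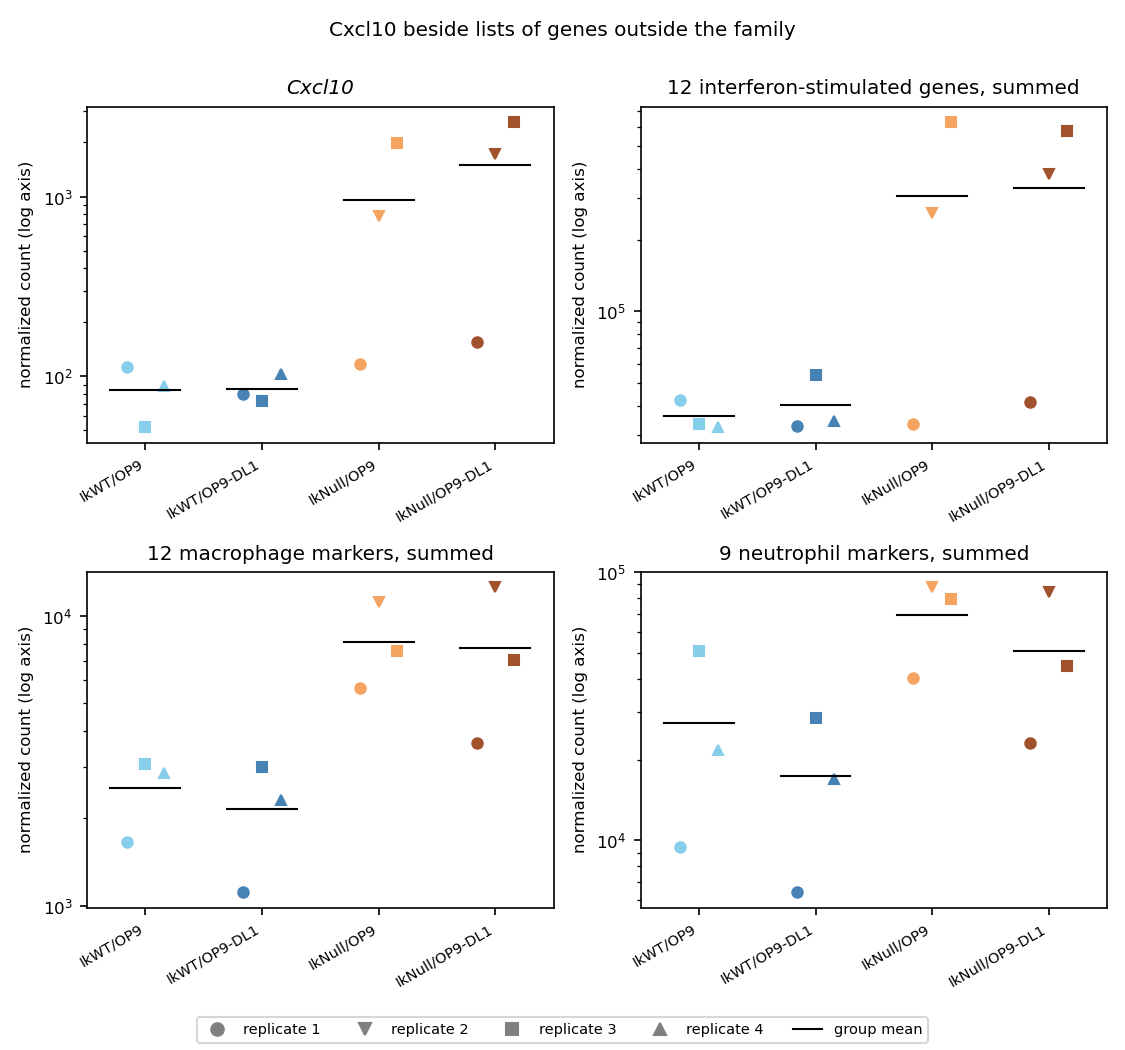
Cxcl10 and the summed levels of 12 interferon-stimulated genes, 12 macrophage markers and 9 neutrophil markers in each library (normalized counts, log axes), with marker shapes for the replicate number and a line at the group mean. IkNull replicate 1 (circles) lies near the IkWT libraries for Cxcl10 and for the sum of the interferon-stimulated genes, at 117 and 154 for Cxcl10, and above all IkWT libraries for the macrophage markers.

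**Figure D4:**
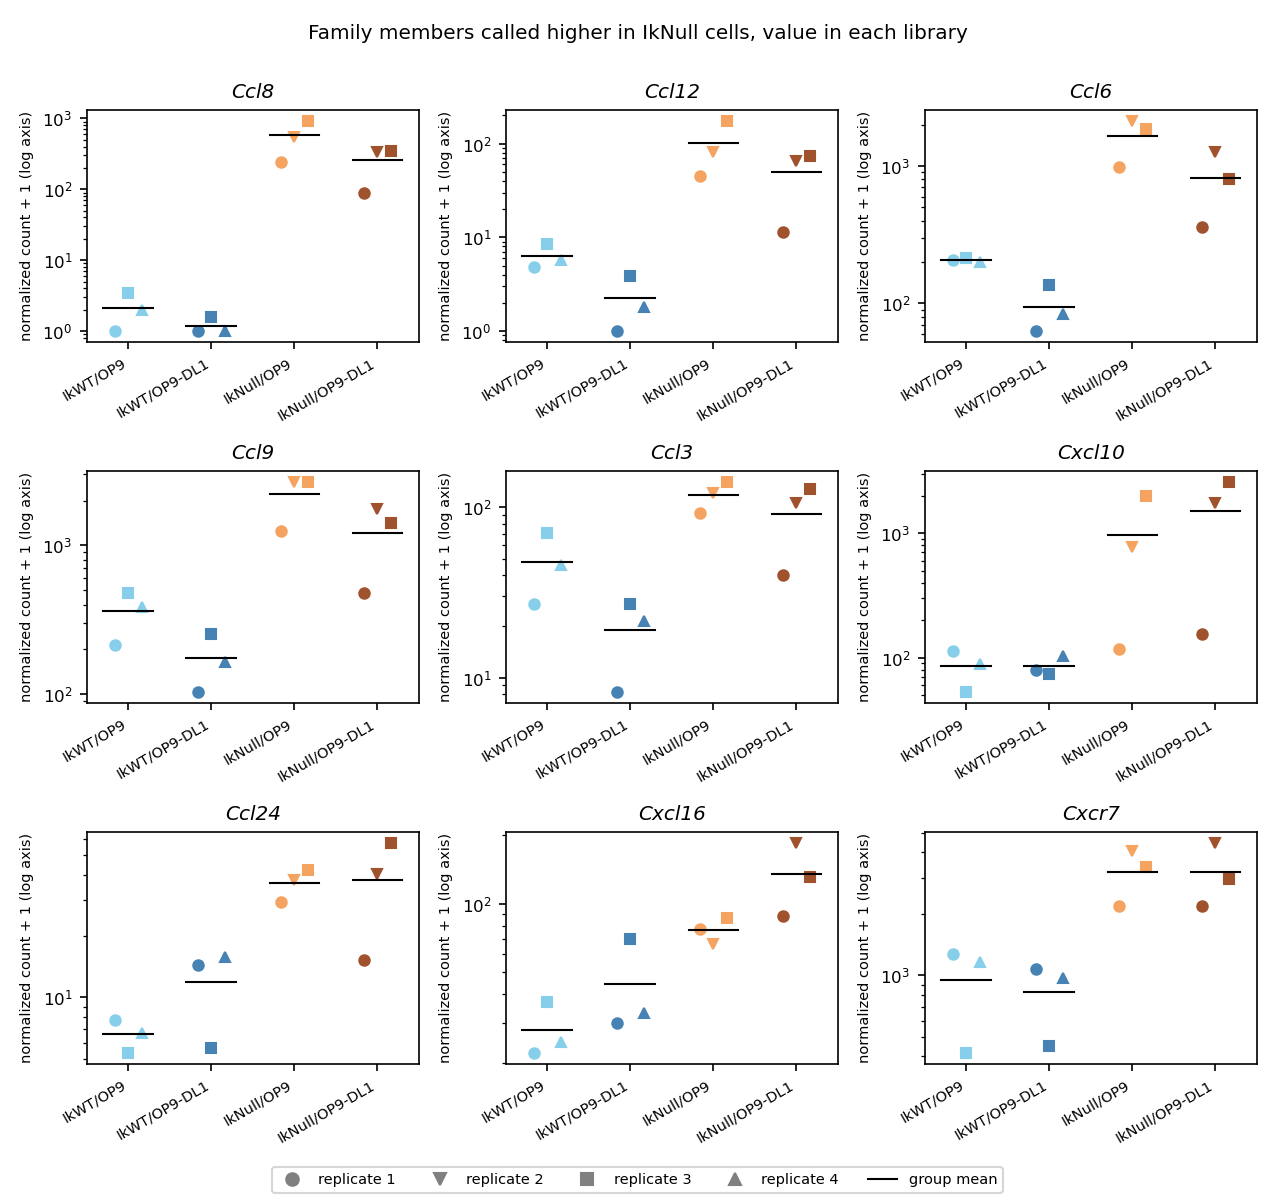
Normalized count plus 1 on log axes, in each library, of the 9 family members called higher in IkNull cells on at least 1 stroma, with marker shapes for the replicate number and a line at the group mean. IkWT libraries of Ccl8 lie at 0 to 2.48 counts, against 86.9 to 932 in IkNull libraries.

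Among the receptors, Cxcr7 was the only 1 of the 6 tested that was called between the genotypes in the fit without a block. It held 1271, 414 and 1156 normalized counts in IkWT/OP9 and 2188, 4074 and 3399 in IkNull/OP9 libraries. On OP9-DL1 it held 1069, 448 and 965 in IkWT and 2176, 4475 and 2966 in IkNull libraries, with no overlap on either stroma. The log2 fold change was 1.88 ± 0.47 (SE) on OP9 (limma, adjusted p = 0.0264) and 1.99 ± 0.47 on OP9-DL1 (adjusted p = 0.0164). The call on OP9 was lost without IkWT/OP9 replicate 3 and without IkNull/OP9 replicate 2 or 3, and that on OP9-DL1 without IkWT/OP9-DL1 replicate 3 or IkNull/OP9-DL1 replicate 2. Both were lost without the culture of IkWT replicate 4 or IkNull replicate 2 or 3, and the adjusted p reached 0.120 on OP9 and 0.106 on OP9-DL1. Cxcr4, the signaling receptor for CXCL12, held 49.9, 193 and 110 in IkWT/OP9 and 178, 332 and 279 in IkNull/OP9 libraries, which overlap. On OP9-DL1 it held 24.8, 108 and 93.8 in IkWT and 122, 352 and 140 in IkNull libraries, which do not. Its log2 fold change was 1.31 ± 0.63 on OP9 (adjusted p = 0.192) and 1.51 ± 0.63 on OP9-DL1 (adjusted p = 0.113), so it was not called.

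The other receptors are those of myeloid cells. DESeq2 on the recovered reads called Ccr1 and Cxcr2 on OP9-DL1, which limma did only with the replicate number as a block. Ccr1, the receptor of CCL6 and CCL9, lay 1.29 ± 0.59 (SE, log2) higher in IkNull cells on OP9 and 1.67 ± 0.59 on OP9-DL1 without passing the test (limma, adjusted p = 0.176 and 0.0727). Cxcr2, the receptor of CXCL1 and CXCL5 on neutrophils, gave 1.52 ± 0.63 and 1.57 ± 0.63 (adjusted p = 0.139 and 0.105). Cx3cr1, the fractalkine receptor of monocytes, gave 0.44 ± 0.55 and 1.10 ± 0.55. Ccr2 held 185, 678 and 331 in IkWT/OP9 and 300, 407 and 91.4 in IkNull/OP9 libraries, and its log2 fold change was -0.63 ± 0.63 on OP9 and 0.87 ± 0.63 on OP9-DL1. The ligands called on neither stroma lay between -0.65 for Cxcl12 and 2.32 for Ccl4 on OP9. Cxcl5 gave 2.17 ± 0.69 on OP9 (limma, adjusted p = 0.0668, against 0.0313 by DESeq2) and 0.59 ± 0.69 on OP9-DL1. Cxcl1 gave 0.01 ± 0.53 on OP9, with a 95% interval from -1.15 to 1.17, and -0.02 ± 0.53 on OP9-DL1, with an interval from -1.18 to 1.14. These intervals leave room for changes of more than 0.8 in either direction, and those of Cx3cl1 and Ccl20 do so on OP9. Ccl22, a ligand of CCR4, gave 1.22 ± 0.40 on OP9 (limma, adjusted p = 0.0712, against 0.0308 by DESeq2) and 0.70 ± 0.40 on OP9-DL1. Ccl25, a ligand of CCR9, gave -0.24 ± 0.49 and -0.65 ± 0.49.

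Genes of the pathway outside the naming rule showed the following. Pf4 and Ppbp, CXC chemokines of platelet granules, were both called higher in IkNull cells on both stromas. Pf4 held 180, 93.6 and 83.8 in IkWT/OP9 and 1438, 1597 and 877 in IkNull/OP9 libraries, a log2 fold change of 3.48 ± 0.41 (SE, limma, adjusted p = 0.000385). Ccrl2, a receptor-like protein that presents ligands without signaling, lay at 3169 to 7358 in IkWT and 8140 to 14169 in IkNull libraries, and was called higher in IkNull cells on OP9-DL1 alone. Of 25 genes of chemokine receptor signaling, 4 were higher and 1 lower on each stroma. Those higher were Dock2, which drives leukocyte migration, the phospholipases Plcb2 and Plcb3, and the kinase Ptk2b, at 1.07 to 1.95 on OP9 (log2 fold change), and the lower one was Arrb1, at -1.31 ± 0.33. Of 5 ligand-processing proteases, Mmp2 was higher on OP9 (1.89 ± 0.30) and Mmp9 on OP9-DL1 (2.63 ± 0.75). Among the 12 macrophage markers, IkNull cells had 2 higher and 1 lower when cultured on OP9, while 5 were higher and 1 was lower in co-culture with OP9-DL1. Mrc1 was 2.95 ± 0.48 higher on both stromas, while Cd5l, a product of resident macrophages, was lower in IkNull cells, at -3.78 ± 0.60 on OP9.

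NOTCH induction was addressed by OP9-DL1 vs OP9 within a genotype. Libraries with the same number on both stromas deviated together, so a number was read as 1 culture split over both stromas, an inference from the values, and the comparison was made without and with the culture as a block. Without the block, 0 of the 24 members were called in either genotype, and of all genes 0.00726% were called higher and 0% lower in IkWT, and 0.0145% higher and 0% lower in IkNull cells. At an unadjusted p under 0.05, 2 members were higher and 4 lower in IkWT, and 2 higher and 1 lower in IkNull cells. Of all genes, 0.625% were higher and 0.763% lower by that measure in IkWT, and 1.33% and 0.254% in IkNull cells. EdgeR on the recovered reads called 0 members, and DESeq2 called 1, Cxcl5 in IkWT cells. With the culture as a block, 3 members were higher and 5 lower in IkWT cells, where 0.45% and 1.02% of all genes were called. In IkNull cells 2 were higher and 2 lower with the block, where 0.508% and 0.225% of all genes were called. The block values are given below, since they set the calls. The median log2 fold change of the 24 members was -0.30 in IkWT and -0.16 in IkNull cells, against 0.01 and -0.01 over all genes.

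Cxcl1 and Cxcl5, neutrophil attractants that lie in 1 cluster on chromosome 5 (90759360 to 90905938), were higher on OP9-DL1. Cxcl1 held 13.4, 24.2 and 16.2 on OP9 against 28.9, 82.7 and 46.9 on OP9-DL1 in IkWT cells. In IkNull cells it held 14.8, 10.1 and 35.2 on OP9 against 41.5, 31.7 and 81.6 on OP9-DL1. It was higher on OP9-DL1 in 6 of 6 cultures, by 1.05 to 1.73 in IkWT and 1.19 to 1.56 in IkNull cultures on the log2 scale. The log2 fold change was 1.42 ± 0.24 (SE with the block) in IkWT (limma, adjusted p = 0.00685 with the block and 1 without) and 1.39 ± 0.24 in IkNull cells (adjusted p = 0.0129 and 1). Cxcl5 held 5.75, 19.8 and 4.76 on OP9 against 24.8, 127 and 70.8 on OP9-DL1 in IkWT cells, with no overlap. It was 2.73 ± 0.34 higher with the block (adjusted p = 0.000898). In IkNull cells it held 40.8, 34.1 and 49.2 on OP9 against 106, 39.3 and 185 on OP9-DL1, a log2 fold change of 1.15 ± 0.34 with the block that did not pass the test (adjusted p = 0.128). The difference between the genotypes in this stroma effect was -1.58 ± 0.48 with the block and did not pass the test either (adjusted p = 0.361).

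Ccl7 was 0.88 ± 0.22 (SE) higher on OP9-DL1 in IkWT cells with the block (limma, adjusted p = 0.0488 with the block and 1 without). It held 23.0, 53.3 and 79.0 on OP9 against 44.4, 128 and 109 on OP9-DL1, and was higher in 3 of 3 IkWT cultures. In IkNull cells Ccl7 held 75.4, 115 and 382 on OP9 against 96.0, 171 and 249 on OP9-DL1, higher in 2 cultures and lower in 1. Cx3cr1 was 1.39 ± 0.28 higher on OP9-DL1 in IkNull cells with the block (adjusted p = 0.0286 and 1), from 40.8, 34.1 and 13.1 to 79.2, 89.1 and 50.4. In IkWT cells it held 10.5, 30.4 and 21.9 on OP9 against 17.5, 33.0 and 58.4 on OP9-DL1, higher in 3 of 3 cultures but not called. Cxcl16 was higher on OP9-DL1 in 6 of 6 cultures, by 0.18 to 1.48, and was called in neither genotype. Stromal marker genes differed between the stromas as well. With the block 6 of 11 stromal markers tested were higher on OP9-DL1 in IkWT and 4 in IkNull cells, and 0 were lower. Pdgfrb lay at 5.75 to 15.5 on OP9 and 37.1 to 75.2 on OP9-DL1 in IkWT cells, while Fn1, which adds the most reads to their sum, held 1285, 1197 and 1080 on OP9 against 776, 889 and 773 on OP9-DL1 there. The sum of the 12 stromal markers, which overlapped between the stromas in IkWT cells, was 1925 to 2127 in IkWT/OP9, 1873 to 2605 in IkWT/OP9-DL1, 2579 to 3374 in IkNull/OP9 and 3623 to 5001 in IkNull/OP9-DL1 libraries, with none at 0 throughout. Dll1, the gene of the ligand engineered into the OP9-DL1 line, lay at 0 to 5.58 on OP9 and 203 to 523 on OP9-DL1 over both genotypes. The part of stromal RNA in the differences between the stromas, those of Cxcl1, Cxcl5 and Ccl7 included, was not tested.

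Several CC ligands called higher in IkNull cells were lower on OP9-DL1 than on OP9. Ccl6, Ccl9, Ccl12 and Ccl3 were lower in 6 of 6 cultures, though Ccl3 by only 0.19 and 0.15 on the log2 scale in IkNull replicates 2 and 3. The share of all genes lower in 6 of 6 cultures was not computed. With the block, Ccl6 fell by 1.21 on the log2 scale in IkWT (SE 0.17, limma, adjusted p = 0.00181 with the block and 1 without) and by 1.14 in IkNull cells (SE 0.17, adjusted p = 0.00615 and 1). Ccl9 fell by 1.07 in IkWT (SE 0.12, adjusted p = 0.000495 and 1) and by 0.97 in IkNull cells (SE 0.12, adjusted p = 0.0018 and 1). Ccl12 and Ccl3 were called in IkWT cells alone, at -1.68 ± 0.38 (adjusted p = 0.0319) and -1.40 ± 0.23 (adjusted p = 0.00712). In IkNull cells they lay at -1.19 ± 0.38 and -0.52 ± 0.23 with the block and were not called. Ccl8 lay at -1.20 ± 0.30 in IkNull cells with the block and was not called (adjusted p = 0.077).

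Ccr2, the receptor of inflammatory monocytes, was lower on OP9-DL1 in IkWT cells. It went from 185, 678 and 331 on OP9 to 50.5, 111 and 124 on OP9-DL1 without overlap, and fell by 1.95 on the log2 scale (SE 0.23 with the block, limma, adjusted p = 0.000571 with the block and 1 without). In IkNull cells it held 300, 407 and 91.4 on OP9 against 140, 294 and 105 on OP9-DL1, lower in 2 of 3 cultures, at -0.46 ± 0.23 with the block. The genotypes' stroma effects differed by 1.50 ± 0.32 with the block, which did not pass the test (adjusted p = 0.158). Neutrophil markers were lower on OP9-DL1 beside these members. With the block 4 of 9 were lower in IkWT (Mpo, Elane, Ctsg and Prtn3) and 3 in IkNull cells (Elane, Ngp and Ctsg), and 0 were higher. Their sum was 9480 to 50630 in IkWT/OP9, 6402 to 28690 in IkWT/OP9-DL1, 40408 to 87823 in IkNull/OP9 and 23002 to 84433 in IkNull/OP9-DL1 libraries. Of the 12 macrophage markers, 1 (Fcgr1) was lower on OP9-DL1 in IkWT and 0 in IkNull cells with the block. The part of these cells in the results was not tested.

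**Figure D5:**
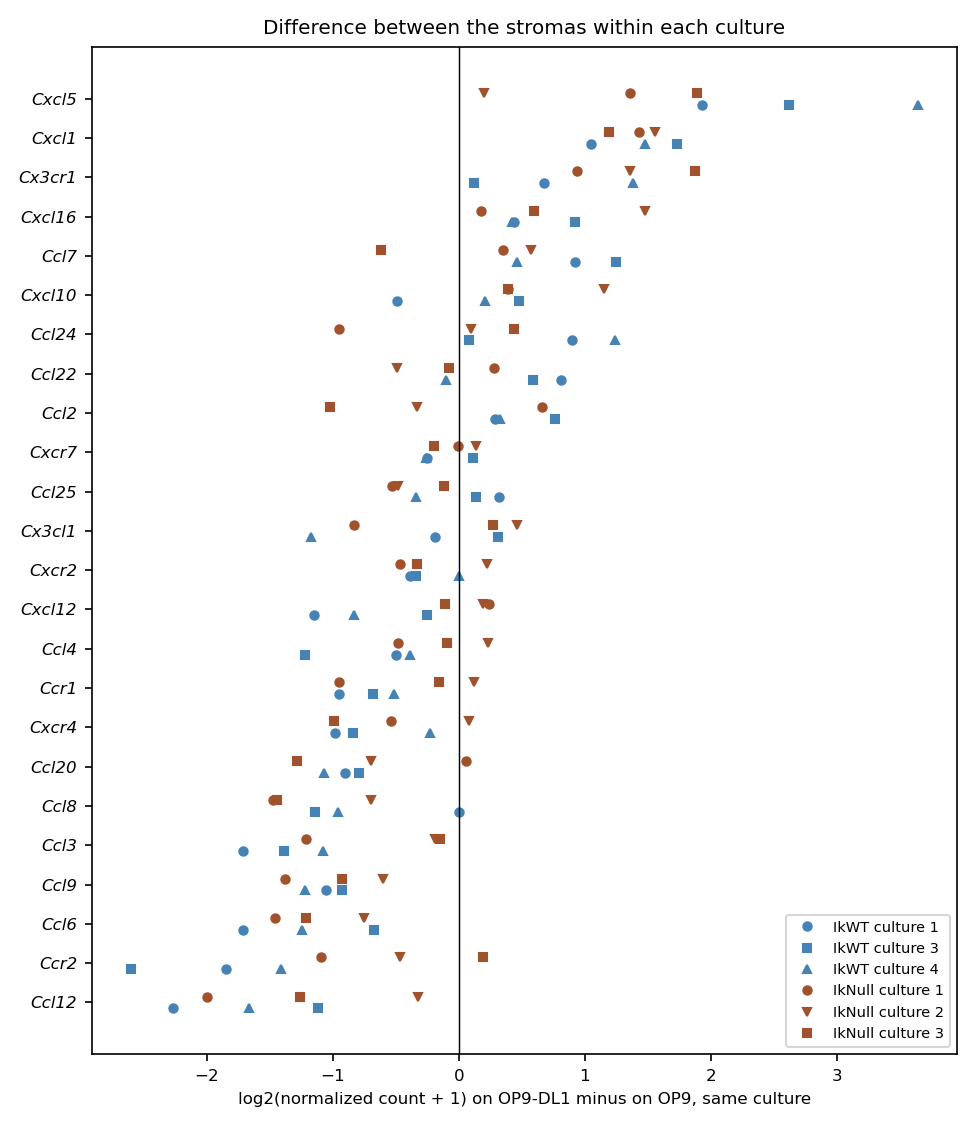
Difference on the log2 scale between OP9-DL1 and OP9 within each of the 6 cultures, for the 24 tested members, ordered by their mean over the cultures. Cxcl1, Cxcl5, Cxcl16 and Cx3cr1 lie above 0 in 6 of 6 cultures, and Ccl3, Ccl6, Ccl9 and Ccl12 lie below 0 in 6 of 6. The share of all genes that do so was not computed.

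The joint effect of IKAROS loss and NOTCH induction was addressed by the interaction of genotype and stroma. No member was called, nor was any other gene (0% of 13769 genes higher and 0% lower), with or without the block, and edgeR and DESeq2 called 0 members. Without the block 0 members had an unadjusted p under 0.05, beside 0.341% of all genes with a positive and 0.0872% with a negative value. With the block 4 members (Ccr2, Cxcl12, Ccl3 and Cxcl10) had a positive and 3 (Cxcl5, Ccl7 and Ccl2) a negative value at an unadjusted p under 0.05, beside 5.69% and 3.12% of all genes, and the smallest adjusted p among them was 0.158, for Ccr2. Without the block the values largest in size were those of Cxcl5 at -1.58 ± 0.98 (SE), with a 95% interval from -3.72 to 0.56, and of Ccr2 at 1.50 ± 0.89, with an interval from -0.45 to 3.45. For Cxcl1 the value was -0.03 ± 0.75, and for Ccl6 it was 0.07 ± 0.62. The SE fell with the block to 0.48 for Cxcl5, 0.32 for Ccr2, 0.34 for Cxcl1 and 0.24 for Ccl6. Of members that the study names, Ccl28, an epithelial ligand, stayed under the filter. It was at 0 in the IkWT/OP9 libraries, at 5.16, 3.47 and 1.65 in IkWT/OP9-DL1, at 1.24, 0 and 1.00 in IkNull/OP9, and at 0, 0 and 2.01 in IkNull/OP9-DL1 libraries.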

How the data were processed

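RNA-seq of 12 libraries was analysed. According to the authors, cells were sorted on Ter119 (the labels describe isolation through a filter), and untrimmed HiSeq2000 reads were aligned to GRCm38/mm10 with TopHat and counted with htseq-count. Tools listed in the submitters' processing notes are DESeq2 1.0.19, HTSeq 0.5.3, TopHat2 2.0.9 and CASAVA 1.8. Neither the annotation release nor whether counting used strand is given in the sources used here. The deposited signal values are gene counts over a size factor of each library, computed by the authors as the median ratio to the geometric mean. Tables of the authors' own comparisons (group means, moderated fold changes, standard errors and p-values) were not used.

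Per library, 100% of values were whole multiples of 1 step within a tolerance of 0.01, which gave back 19889576 to 31624477 reads. The steps of both IkNull replicate 3 libraries lie near 1, so their values were taken as reads on the tolerance alone. limma 3.58.1 in R 4.3.3 (lmFit, contrasts, eBayes with trend) was fitted to log2(normalized count + 1) of 13769 genes with a mean of at least 5, with 4 group means, and p-values were Benjamini-Hochberg adjusted over all of them. A fold change on this scale understates that of low genes. Calls needed an adjusted p below 0.05 together with a change of 0.8 or more on the log2 scale. The script was tested on simulated data. An exact permutation test of 3 against 3 libraries cannot go below p = 0.1. The exact interval of the Ccl8 ratio covers counting error only, as the reads carry no molecular identifiers, while limma intervals rest on the spread between libraries.

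Replicate numbers were checked on the correlation of deviations from group means across genes, which are not independent replicates. Within a genotype, the OP9 and OP9-DL1 libraries of a number correlated at 0.58 to 0.83 (6 pairs) and others at -0.70 to 0.20, so the culture was used as a block for stroma contrasts. Each comparison between genotypes shares only the numbers 1 and 3, too few to be read as pairs. Whether numbers are litters was not stated by the labels.

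Alternatives were no filter, a minimum mean of 20, pseudocounts of 0.5 and 5, TMM and same-total scaling, no trend, edgeR 4.0.16 and DESeq2 1.42.0 on recovered reads, and leaving out each library or culture. Gene positions came from GENCODE vM21, where 54 of 58 members were found, and promoters from RefSeq (GRCm38.p6). At most a few percent of any tested member's 50-base words occur in another gene. A further gene under the naming rule stayed in the fit but is not reported here. Members and lists were chosen with earlier results of these data known. Each tested member is named, with values per library for members called in any contrast or named by the study and for Cxcl12 and Cxcr4, as the rule set.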

Additional observations from a re-analysis of the deposited data

Results flagged for a closer look

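Cxcl11, an interferon-inducible ligand of CXCR3 like Cxcl10 and Cxcl9, is annotated as a polymorphic pseudogene in the deposited table, so it fell outside the protein-coding rule and no comparison of the report uses it. It was above 0 in 5 of 6 IkNull libraries with a median of 4.52 normalized counts and a highest value of 13.1, and in 1 of 6 IkWT libraries at 0.823. Its level in the IkNull libraries was thus above that in the wild-type controls, without a test. Groups of 3 libraries are too small for a check for outlying samples, and no member moved in opposite directions between the stromas in every culture of the 2 genotypes.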

How the results depend on the processing

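On OP9, 7 members were called higher in IkNull cells, and this count was 8 with edgeR, 12 with DESeq2, 4 to 7 with single libraries left out, and 2, 4 or 13 with cultures left out (2 without IkWT replicate 4 or IkNull replicate 2, 4 without IkNull replicate 3, 13 without IkNull replicate 1). On OP9-DL1 it was 8, became 10 with edgeR, 12 with DESeq2 and 5 with libraries scaled to the same total, ranged from 4 to 12 with single libraries left out, and was 4 without the culture of IkWT replicate 4 or IkNull replicate 3 and 3 without that of IkNull replicate 2. Scaling to the same total moved the median of all genes to -0.21 on OP9 and -0.26 on OP9-DL1. Libraries with the same number correlated at 0.20 to 0.48 across genotypes on a stroma (4 pairs), but each comparison shares only 2 numbers, which were not read as pairs. With the replicate number as a block across genotypes the counts were 15 and 13. Added were Ccl2, Ccl3, Ccl4, Ccl7, Ccl22, Ccr1, Cxcl5 and Cxcr2 on OP9 and Ccl4, Ccl7, Ccr1, Cxcr2 and Cxcr4 on OP9-DL1. The share of all genes called in these alternative genotype comparisons is not given here, so their counts are not a result about the members. At an unadjusted limma p under 0.05, 14 members were higher on OP9 without that block and 17 with it, beside 16% and 22.2% of all genes. On OP9-DL1 these were 13 and 15 members, beside 18.7% and 24.5% of all genes. With the replicate block of cultures, the stroma contrasts gave 3 higher and 5 lower members in IkWT and 2 higher and 2 lower in IkNull cells, against 0 without it, and DESeq2 gave 1 higher in IkWT cells. The block changed no other call of a member. Over single members and contrasts called with or without a block, 844 alternative values kept their direction, of which 59 lost the call and 48 gained it. The cause of these changes was not tested. Depth limits members with few reads, such as Ccl8 in IkWT cells.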

Other observations

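Among members under the filter, Cxcr3, the receptor of CXCL10, held 0 to 1.16 normalized counts in the 6 IkWT libraries and 1.30 to 10.6 in the 6 IkNull libraries. Cxcl3, a neutrophil attractant of the Cxcl1 cluster, held 0 to 1.65 in IkWT and 1.30 to 9.06 in IkNull libraries. Ccr7, which guides lymphocytes and dendritic cells to lymph nodes, went the other way, at 0 to 17.9 in IkWT and 0 to 3.02 in IkNull libraries. These 3 were chosen after their values were seen and were not tested. Darc (Ackr1), the erythroid chemokine sink, lay at 3414, 955 and 1895 in IkWT/OP9 and 2570, 1380 and 995 in IkNull/OP9 libraries, with replicate 1 the highest library of both groups.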
